A study of Mus musculus with 10 samples.

Results

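The 45 genes described here act at the G1/S transition and in DNA replication. They were taken by gene symbol, from a list made with earlier results of these data known but with no rule on measured values, out of the 38087 genes in the tables, and all 45 were found. By role, 11 of them form or load the MCM helicase, 4 activate it, 9 are DNA polymerase or primase subunits, 7 belong to the sliding clamp and its loaders, 4 bind single strands or process the lagging strand, 4 supply deoxynucleotides, 4 serve chromatin assembly and histone supply, and 2 protect the fork.

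The study measured total RNA, depleted of ribosomal RNA, of wild-type NIH3T3 cells, an immortalised line of mouse embryonic fibroblasts, during 2 temperature courses. Cells were seeded at 37 °C for 4 h and then held for 16 h at 38 °C or at 33 °C before they were moved to the other temperature. Cooling from 38 to 33 °C is the downshift, and warming from 33 to 38 °C is the upshift. Each course has 1 sample at 0, 1, 3, 6 and 9 h after the move, 10 samples in all. With 1 sample per time, the p-values below rest on scatter around a fitted time line.

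Exon and intron read counts come in 2 columns per sample, whose headers carry a series number: downshift columns belong to series 5 or 11, upshift columns to series 2 or 13. Nothing in the labels says what these numbers stand for or whether the columns come from separate cultures. Exon totals per column ran from 22403590 to 48004603 reads and intron totals from 15313355 to 25233539. Same-sample columns were not alike within sampling error (chi-square per degree of freedom 104.4 to 292.1), and a first principal component with 47.4% of the variance put series 2 and 5 on one side and series 11 and 13 on the other. Columns were therefore summed for the main values, and the called results and the counts are also given within series 2 and 5 and within series 11 and 13, each of which holds both courses. Standard errors and p-values of the main values rest on the sums. They leave out any disagreement between the pairs in the change over time. Each series lies in only 1 course, so what sets 2 paired series apart and what sets the courses apart cannot be told apart. Of 10 fibroblast markers 9 had a median of 1 RPKM or more, among them Col1a1, Vim and S100a4, whereas Lum was near 0. By their median over the samples, 0 of 5 epithelial and 0 of 4 endothelial markers reached 1 RPKM (Cdh5 came closest, at 0.414 to 1.22 RPKM), and of 5 immune markers Cd68 alone did, at 0.939 to 1.82 RPKM.

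Before S phase, ORC, Cdc6 and Cdt1 load rings of MCM proteins onto origins. Cdc45 and the GINS complex then turn the ring into a working helicase, behind which polymerases alpha, delta and epsilon copy the strands. The clamp PCNA, opened by replication factor C, holds polymerases delta and epsilon on DNA. Most of these genes are transcribed under E2F factors at the end of G1, and in a dividing culture their RNA level follows how many cells are in late G1 and S phase. In bulk RNA, fewer cells in a phase and less RNA per cell cannot be told apart, and this holds for each result below.

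Promoter sequence is shown first, because E2F sites are the best known shared feature of these genes and the list was not chosen by sequence. RefSeq windows (GRCm38.p6) matched 37 of the 45 members; Mcm4, Gins1, Gins2, Prim2, Pole, Rfc2, Dscc1 and Tipin had none. The 250 bases before each start were searched on both strands for 4 E2F-type words and for CCAAT. The words were TTCCCGC, the word TTGGCGC, the word TTCGCGC and the word TTGCCGC, and matches may overlap. An E2F-type word stood in 16 of 37 members (43.2%), against 9.01% of 27025 genes with a window and 17.6% of the 7126 such genes tested on exons. CCAAT stood in 23 of 37 members (62.2%), against 37.5% and 41.9%. The word was present in 3 of 10 members called higher in the test below (Mcm6, Chaf1b and Rfc3), in the 1 member called lower (Orc1) and in 12 of 25 tested members not called. The 5 stretches below show Mcm6, Orc1 and Chaf1b, and then the uncalled members with the most words. Capitals mark E2F-type words and CCAAT or its reverse complement, and each stretch is 100 bases, written 5′ to 3′ on the gene's strand.
Mcm6 (chr1:128359706-128359805, minus strand): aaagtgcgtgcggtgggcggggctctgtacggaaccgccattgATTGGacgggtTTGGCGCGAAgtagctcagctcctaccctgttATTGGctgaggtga
Orc1 (chr4:108579343-108579442, plus strand): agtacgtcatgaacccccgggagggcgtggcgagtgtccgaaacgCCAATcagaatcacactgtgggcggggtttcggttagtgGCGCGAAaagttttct
Chaf1b (chr16:93883651-93883750, plus strand): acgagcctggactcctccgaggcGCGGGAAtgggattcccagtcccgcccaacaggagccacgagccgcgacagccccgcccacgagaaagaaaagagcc
Mcm5 (chr8:75109314-75109413, plus strand): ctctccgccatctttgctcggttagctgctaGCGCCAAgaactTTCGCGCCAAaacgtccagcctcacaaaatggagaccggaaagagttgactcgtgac
Pola1 (chrX:93632223-93632322, minus strand): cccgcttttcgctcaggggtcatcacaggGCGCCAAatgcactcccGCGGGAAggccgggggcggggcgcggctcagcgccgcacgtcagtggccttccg
In Mcm6 and in Mcm5 a pair of words overlaps, so that a single run of capitals holds both. The word nearest the RefSeq start lay 43 bases before it in Mcm6, 27 in Orc1, 227 in Chaf1b, 149 in Mcm5 and 121 in Pola1. In the GENCODE M21 annotation Orc1 starts earlier, at chr4:108579423, so by that annotation its word lies inside the gene. The 30 bases after the RefSeq start begin a GENCODE M21 transcript in 37.2% of all windows. These matches are letters only and do not show binding.

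Of the 45 members, 44 passed the filter on low values (a mean of at least 1 RPKM over exons). Cdt1, the licensing factor that brings MCM rings to origins, is listed at 0 in every exon and intron column; it lies inside the annotated gene Gm20388 on the same strand, and the handling of reads shared by overlapping genes is not stated in the sources used here. Mean exon levels of the 44 tested members ran from 2.88 RPKM for Dscc1 to 122.9 RPKM for Mcm4, with a median of 16.6 RPKM. The test asks whether a gene moved differently after the shifts. The fitted log2 change from 0 to 9 h after the upshift is subtracted from that after the downshift. A positive difference is written below as higher toward 33 °C, and a negative one as lower. It need not mean that a gene moved in both courses. Rpa1, called higher, changed by 0.019 after the downshift and -0.48 after the upshift. Rrm2 had a positive difference although both its changes were negative (-0.22 and -0.51). A gene is called when its adjusted p (edgeR quasi-likelihood test, Benjamini-Hochberg over all 10173 genes tested) is under 0.05.

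On exons 13 of 44 members (29.5%) were called higher toward 33 °C and 1 (2.27%) was called lower. Over all genes tested, 25.2% were called higher and 21.7% lower, so the share of members called higher is near the background and the share called lower is below it. The median difference of the members was 0.21 on the log2 scale, against 0.035 for all genes tested. The members called higher were Pole, Tk1, Chaf1b, Tipin, Mcm6, Lig1, Gins2, Rfc1, Pcna, Rfc3, Orc6, Rfc5 and Rpa1, and Orc1 was called lower. The direction of most members depended on the pair of series. Of the 44, 13 were higher in both pairs, 5 were lower in both, and 26 were higher within series 2 and 5 and lower within series 11 and 13. The value within series 2 and 5 was above that within series 11 and 13 for 43 of 44 members. The median was 0.51 within series 2 and 5, where 17 members were called higher and 1 lower (18.5% and 18.9% of all genes), and -0.26 within series 11 and 13, where 5 were called higher and 10 lower (18.7% and 18.1% of all genes). Mcm6, Pole, Lig1, Tk1 and Chaf1b were called higher, and Orc1 lower, within each pair, and no member was called in opposite directions by the pairs. The share of all genes called in both pairs, in the same or opposite directions, was not computed. Nor was the share of all genes whose sign or order of values differed between the pairs in this way. The member counts of signs, of order and of calls in both pairs therefore have no background beside them. In series 2 and 5 the median of all genes tested was 0.0, and in series 11 and 13 it was 0.013. Whether the split of signs is particular to the members was not tested. Among members not called over both pairs, Pola2 (0.54), Prim1 (0.50), Rpa2 (0.70) and Rrm2 (0.54) were called higher within series 2 and 5. Within series 11 and 13, Cdc6 (-1.31), Pold1 (-0.94), Cdc45 (-0.85), Uhrf1 (-0.68), Gins3 (-0.61), Pole2 (-0.61), Mcm5 (-0.59), Mcm10 (-0.58) and Pola1 (-0.48) were called lower.

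**Figure D1:**
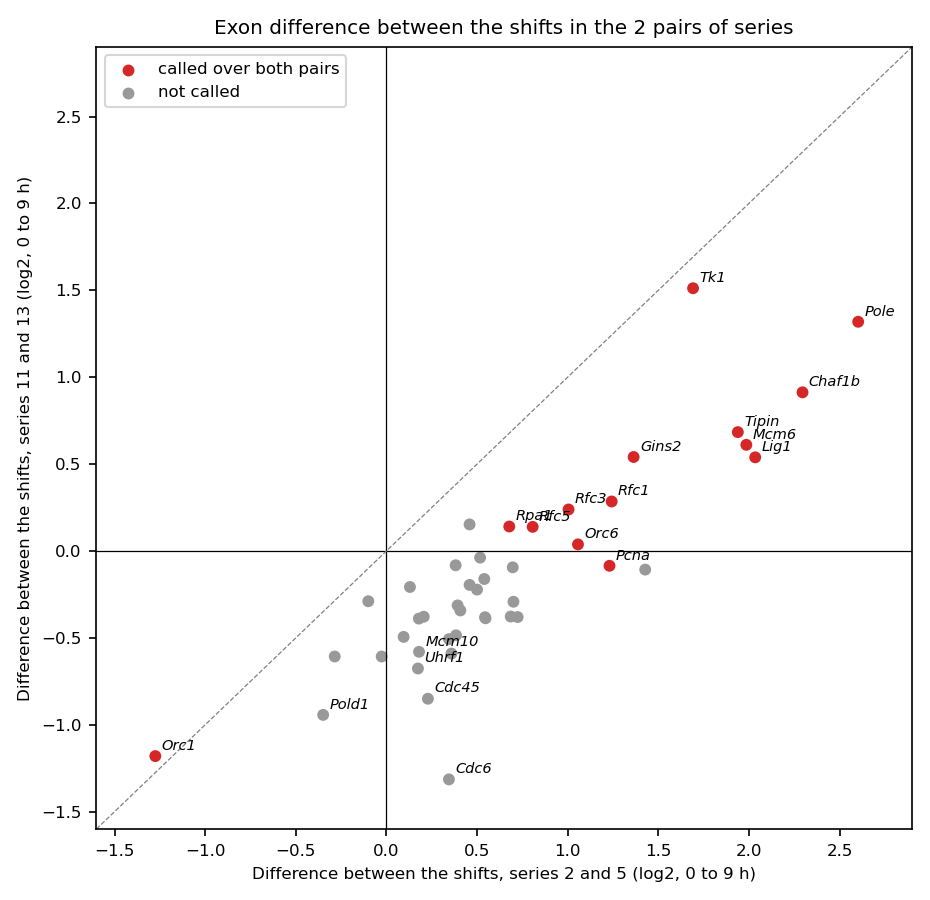
Fitted exon difference between the shifts (log2, change from 0 to 9 h after the downshift minus that after the upshift) of 44 members within series 2 and 5 (horizontal axis) and within series 11 and 13 (vertical axis). Red points are members called over both pairs, grey points are not called, and the dashed line marks equal values; 43 of 44 points lie below it, and 26 lie right of 0 on the horizontal axis and below 0 on the vertical axis.

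Among the genes of the MCM ring and its loading, Mcm6, a subunit of the ring, was called higher and Orc1 lower, and Orc6 was called higher with less support from series 11 and 13. Mcm6 exon levels were 64.0, 68.0, 86.01, 103 and 98.5 RPKM at 0, 1, 3, 6 and 9 h of the downshift and 111, 91.4, 65.8, 58.4 and 77.7 RPKM at the same times of the upshift. Levels thus went up toward 33 °C and down toward 38 °C, with a partial return at 9 h of the upshift, and the ranges of the courses overlapped. The Mcm6 difference was 1.44 ± 0.26 (SE, log2; adjusted p = 0.00171), and 1.99 and 0.61 within the pairs (series 2 and 5 first, here and below). The other ring subunits were not called. Mcm2, Mcm3, Mcm4, Mcm5 and Mcm7 had differences between -0.094 and 0.31. All 5 were positive within series 2 and 5 (0.34 to 0.72) and negative within series 11 and 13 (-0.59 to -0.29).

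Orc1, the ATPase subunit of the origin recognition complex that comes and goes with the cell cycle, went down toward 33 °C and up toward 38 °C. Its exon levels were 13.4, 12.8, 12.8, 10.99 and 8.39 RPKM during the downshift and 8.82, 9.90, 10.5, 12.6 and 14.3 RPKM during the upshift. The last downshift sample was the lowest of the 10 and the last upshift sample the highest. The Orc1 difference was -1.23 ± 0.22 (adjusted p = 0.00136), with -1.27 and -1.18 within the pairs, and its call was lost when 0 h was set against 3, 6 and 9 h in place of a line (-0.81). Orc6, the smallest ORC subunit, was called higher (0.70 ± 0.17, adjusted p = 0.00630), from 24.3 to 27.4 RPKM over the downshift and from 32.2 to 26.3 RPKM over the upshift. Within the pairs Orc6 differed by 1.06 and 0.038, so its call rests on series 2 and 5. Cdc6, which loads MCM rings with ORC, was not called (-0.33 ± 0.33, adjusted p = 0.424), and its pairs gave 0.34 and -1.31. In series 5 Cdc6 went from 14.1 RPKM at 0 h through 25.9 at 3 h to 16.9 at 9 h, whereas in series 11 it went from 17.7 through 14.0 to 8.47 RPKM. Mcm10, a scaffold that joins the helicase at activation, had a difference of -0.13 ± 0.19 (adjusted p = 0.596).

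**Figure D2:**
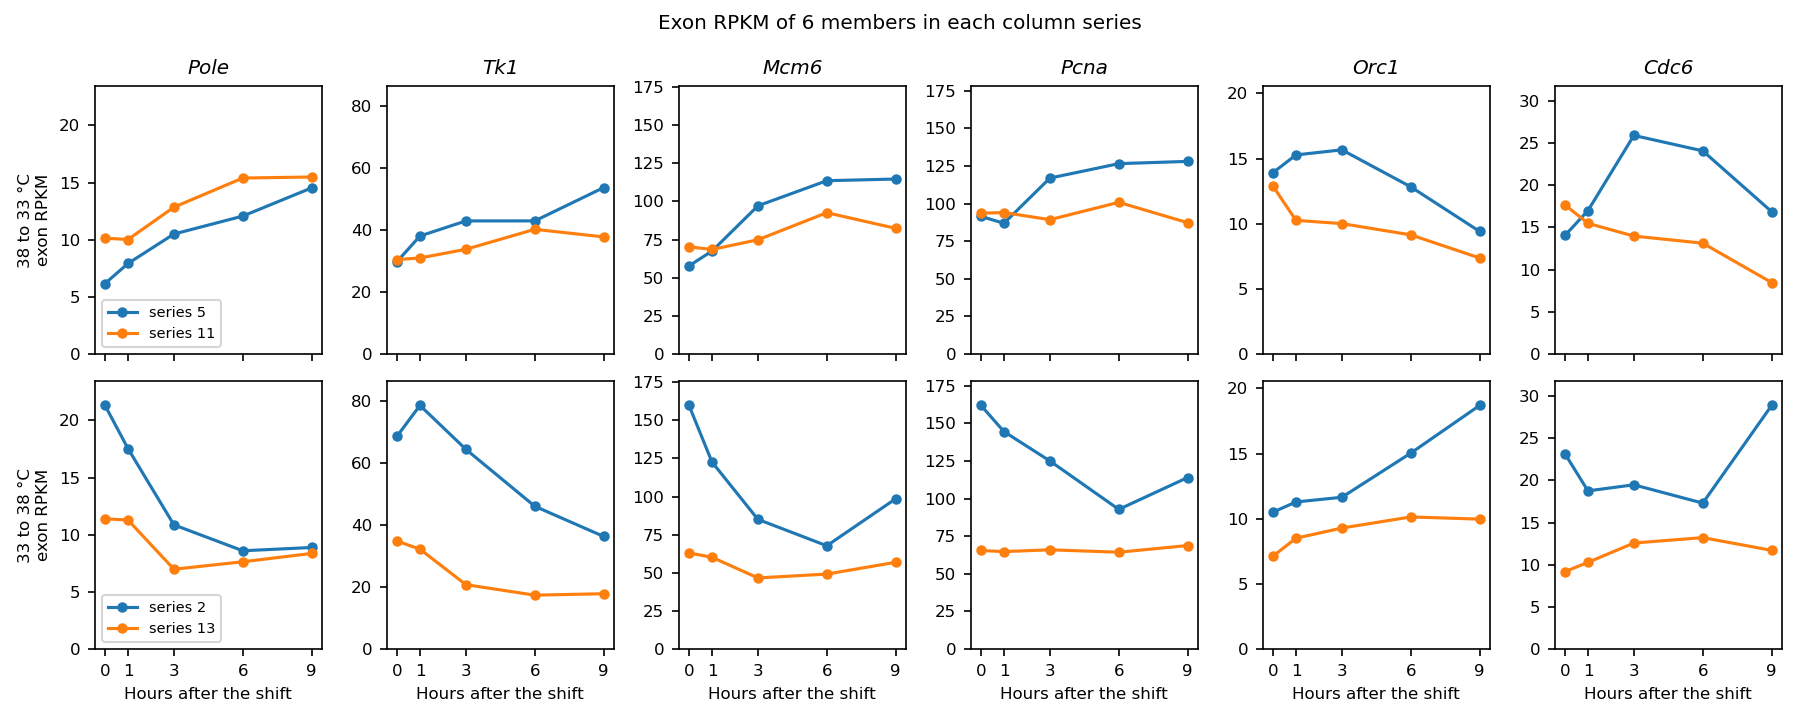
Exon RPKM of Pole, Tk1, Mcm6, Pcna, Orc1 and Cdc6 against hours after the shift, with the downshift above and the upshift below; each line is 1 column series, blue for series 2 and 5 and orange for series 11 and 13, and the vertical axes start at 0. In every series Pole and Tk1 end the downshift above and the upshift below their start, Orc1 does the opposite, and Cdc6 in series 5 and 11 ends on different sides of its 0 h level.

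Of the genes that activate the helicase, Gins2, a GINS subunit, was called. Gins2 exon levels were 6.35, 6.97, 7.68, 9.15 and 8.55 RPKM during the downshift and 11.01, 10.5, 8.94, 7.11 and 8.69 RPKM during the upshift. The first 2 samples of the upshift were the highest of the 10 and the first of the downshift was the lowest, and the courses were near the same level at 9 h. The Gins2 difference was 1.02 ± 0.19 (adjusted p = 0.00183), with 1.36 and 0.54 within the pairs. Gins1 (0.30), Gins3 (-0.38) and Cdc45 (-0.14), the other components, were not called.

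Among the polymerases Pole, the catalytic subunit of the leading-strand polymerase epsilon, was the 1 gene called, and its difference was the largest of the 44. Pole exon levels rose at every step of the downshift, 8.15, 8.97, 11.7, 13.7 and 15.01 RPKM, and went from 16.4 and 14.4 at 0 and 1 h of the upshift to 8.93, 8.12 and 8.63 RPKM later. In these means each course ended near the level at which the other began, but the pairs had gaps of opposite sign: at 33 °C the end of the downshift minus the start of the upshift was -0.55 in series 2 and 5 and 0.44 in series 11 and 13, and at 38 °C the end of the upshift minus the start of the downshift was 0.52 and -0.27. The Pole difference was 2.02 ± 0.20 (adjusted p = 0.000119), 2.60 and 1.32 within the pairs. Its partner Pole2, the accessory subunit of the same enzyme, had a difference of -0.25 ± 0.18 (adjusted p = 0.272). The remaining 7 genes, Pola1, Pola2, Prim1, Prim2, Pold1, Pold2 and Pold3, had differences from -0.60 for Pold1 to 0.28 for Prim1 and none was called.

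The clamp and its loaders had the most calls of any role, 4 of 7. Pcna, the sliding clamp, had exon levels of 92.5, 90.5, 103, 114 and 108 RPKM during the downshift and 114, 105, 95.5, 78.6 and 91.4 RPKM during the upshift. The lowest sample was that at 6 h of the upshift, and the courses overlapped widely. The Pcna difference was 0.74 ± 0.14 (adjusted p = 0.00252), with 1.23 in series 2 and 5 against -0.085 in series 11 and 13. In series 11 Pcna stayed between 87.3 and 101 RPKM and in series 13 between 64.4 and 68.8 RPKM at all times. Rfc1, the large subunit of replication factor C, went from 20.04 to 25.6 RPKM over the downshift and from 27.2 to 21.9 RPKM over the upshift (0.84 ± 0.15, adjusted p = 0.00136; 1.24 and 0.29 within the pairs). Rfc3 and Rfc5, small subunits of the same loader, differed by 0.71 ± 0.19 (adjusted p = 0.0106; 1.00 and 0.24) and 0.58 ± 0.11 (adjusted p = 0.00227; 0.81 and 0.14). None of these 4 was called within series 11 and 13, and the Rfc3 call was lost without the 0 h sample of the downshift (0.67) or of the upshift (0.63) and on linear hours (0.60). Rfc2 (0.14) and Rfc4 (-0.15) were not called. Dscc1, part of the loader that acts in sister chromatid cohesion and the lowest of the tested members, had a difference of 0.79 ± 0.48 (adjusted p = 0.196).

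On the lagging strand, Lig1, the ligase that seals Okazaki fragments, was called within each pair. Lig1 exon levels rose from 17.6, 18.4 and 21.7 to 25.1 and 26.3 RPKM during the downshift and were 25.7, 24.0, 18.5, 16.1 and 18.6 RPKM during the upshift. The Lig1 difference was 1.25 ± 0.17 (adjusted p = 0.000351), with 2.03 and 0.54 within the pairs. Rpa1, the large subunit of the single-strand binding protein RPA, had exon levels of 57.4, 54.9, 57.6, 57.1 and 56.8 RPKM during the downshift against 81.7, 82.5, 76.5, 61.8 and 61.4 RPKM during the upshift. Every downshift sample of Rpa1 lay below every upshift sample, which includes any difference between the series. The Rpa1 difference was 0.50 ± 0.13 (adjusted p = 0.00919; 0.68 and 0.14 within the pairs), and its call was lost with 0 h set against 3, 6 and 9 h (0.29). Rpa2 (0.40 ± 0.16, adjusted p = 0.0634) and Fen1, the flap endonuclease (0.039 ± 0.12, adjusted p = 0.812), were not called.

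Of the genes for deoxynucleotide supply, Tk1, the thymidine kinase of S phase, had differences of much the same size in both pairs, 1.69 and 1.51. Tk1 exon levels rose at every step of the downshift, 30.1, 34.5, 38.3, 41.5 and 45.7 RPKM, and were 51.7, 55.3, 42.5, 31.7 and 27.0 RPKM during the upshift. The highest and the lowest of the 10 samples were both in the upshift, at 1 and 9 h. The Tk1 difference was 1.64 ± 0.20 (adjusted p = 0.000237). The ribonucleotide reductase subunits Rrm1 (0.38 ± 0.15, adjusted p = 0.0522) and Rrm2 (0.30 ± 0.13, adjusted p = 0.0869) and the thymidylate synthase Tyms (-0.005) were not called.

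Chaf1b, the middle subunit of chromatin assembly factor CAF-1, which deposits histones behind the fork, was called within each pair. Chaf1b exon levels were 13.7, 13.4, 18.1, 22.1 and 19.97 RPKM during the downshift and 18.3, 15.4, 9.66, 8.46 and 11.8 RPKM during the upshift. The last 3 samples of the upshift were the 3 lowest of the 10. The Chaf1b difference was 1.62 ± 0.33 (adjusted p = 0.00311), with 2.30 and 0.91 within the pairs. Its partner Chaf1a had a difference of -0.15 ± 0.21 (adjusted p = 0.568). Slbp, which binds the stem-loop of histone mRNA (0.21), and Uhrf1, which guides maintenance DNA methylation (-0.30), were not called. Of the fork protection pair, Tipin was called (1.47 ± 0.27, adjusted p = 0.00174; 1.94 and 0.68 within the pairs) and its partner Timeless was not (0.17 ± 0.27, adjusted p = 0.618). Tipin exon levels went from 18.6 to 26.9 RPKM over the downshift and from 31.7 through 15.6 at 6 h to 19.6 RPKM over the upshift. Known partners in 1 complex thus differed in their calls for Pole and Pole2, Chaf1a and Chaf1b, Tipin and Timeless, and Mcm6 and its ring; the difference between partners was not tested.

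Of the 14 called members, 7 overlap an annotated gene on the other strand and 5 overlap one on the same strand, and 3 overlap none. Whether overlap bears on the calls was not tested, and uncalled members also include overlapping genes. The libraries were strand-specific per the labels, but the use of strand in counting is not stated in the labels or headers.

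**Figure D3:**
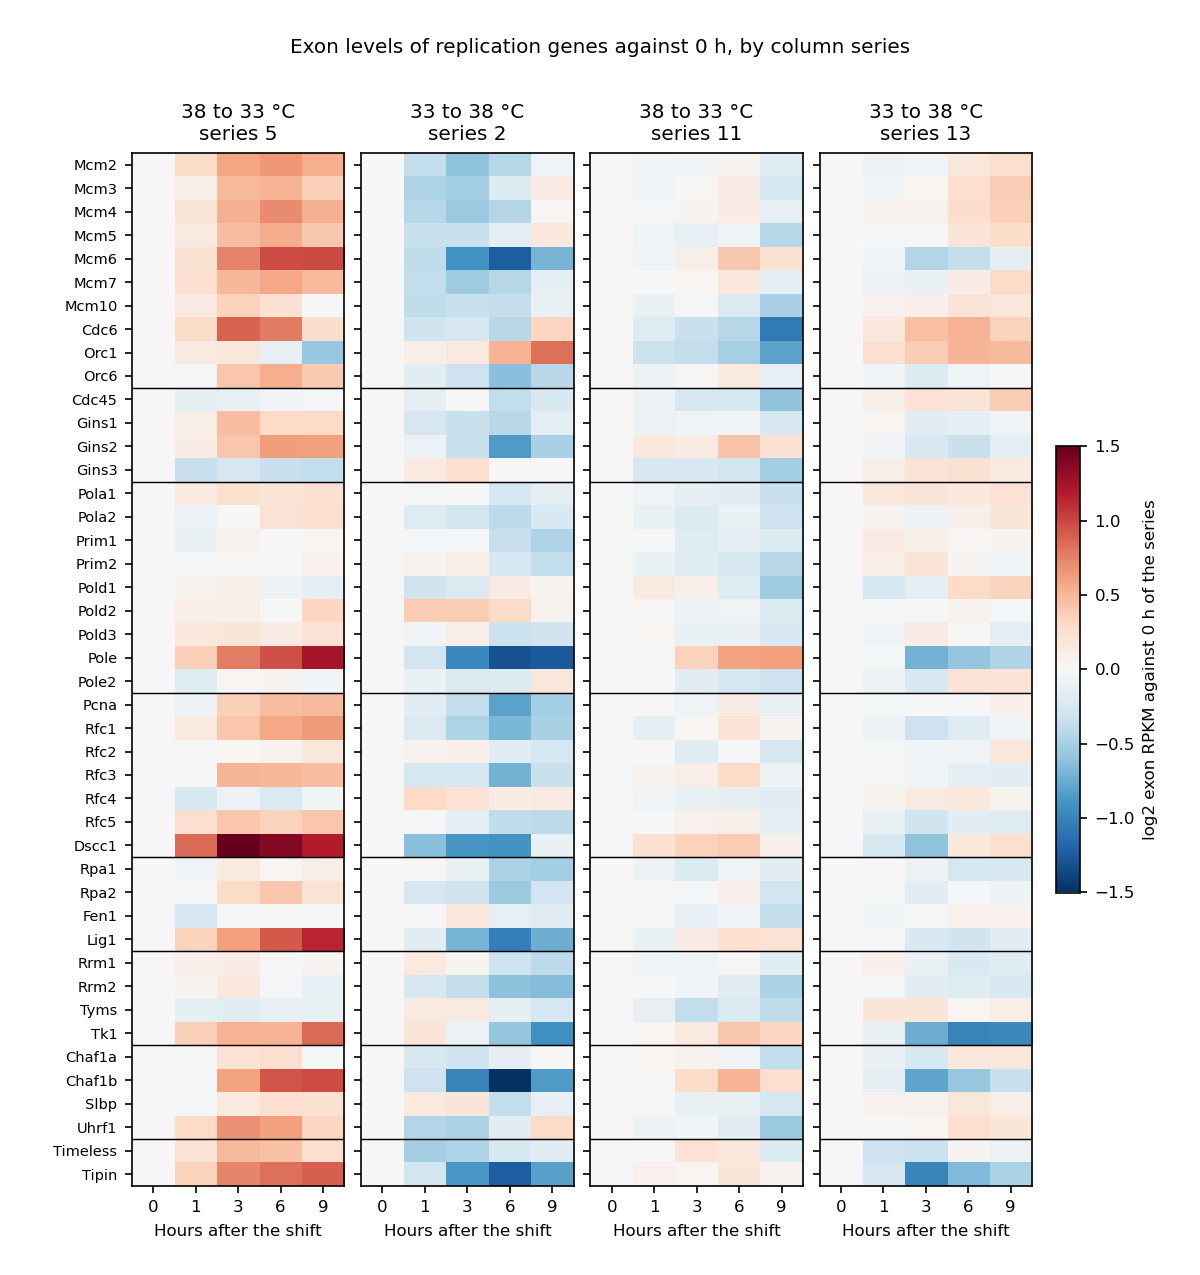
Exon RPKM of the 44 tested members, as log2 against the 0 h column of the same series (colour, limited to 1.5 either way), at 0, 1, 3, 6 and 9 h in series 5, 2, 11 and 13; black lines separate the roles. Red dominates in series 5 and blue in series 2, while series 11 and 13 are paler, with medians at 9 h of 0.26, -0.22, -0.22 and 0.058.

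Tested shift by shift, 9 of 44 members rose and 2 fell with the downshift (16.3% and 15.9% of all genes), while 1 rose and 15 fell with the upshift (14.5% and 18.6% of all genes). The 9 became 2 without the 0 h sample and 4 without the 6 h sample of the downshift, and the 15 became 9 without the 6 h sample of the upshift. The share of members that fell after the upshift, 34.1%, was above the background share of 18.6%. After the downshift the largest fitted changes were those of Pole (0.94 ± 0.14, adjusted p = 0.00236), Chaf1b (0.75 ± 0.24, adjusted p = 0.0364), Mcm6 (0.75 ± 0.19, adjusted p = 0.0150) and Dscc1 (0.73 ± 0.36, adjusted p = 0.140, not called). After the upshift they were Pole (-1.08 ± 0.14, adjusted p = 0.000732), Tk1 (-1.05 ± 0.14, adjusted p = 0.000957), Tipin (-0.89 ± 0.18, adjusted p = 0.00570) and Chaf1b (-0.87 ± 0.23, adjusted p = 0.0164). In all, 10 members were called after both shifts, each in opposite directions. The share of all genes called after both shifts, or after the upshift only, was not computed, so these member counts have no background beside them. Orc6, Prim1, Rfc5, Rpa1, Rrm1 and Rrm2 fell after the upshift and were not called after the downshift; a call in 1 course alone does not show that the courses differ, and for Prim1, Rrm1 and Rrm2 the difference itself was not called. Rrm2, the regulated subunit of ribonucleotide reductase, went from 78.2 to 54.9 RPKM over the upshift (-0.51 ± 0.091, adjusted p = 0.00283) and from 60.8 to 50.0 RPKM over the downshift (-0.22 ± 0.093, adjusted p = 0.0990). Within series 2 and 5, 11 members rose and 0 fell after the downshift (10.5% and 11.7% of all genes), and 1 rose and 15 fell after the upshift (14.9% and 14.3%). Within series 11 and 13 the numbers were 1 and 7 after the downshift (9.84% and 10.1%) and 2 and 2 after the upshift (9.74% and 11.7%).

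By column, the median member in series 5 stood 0.35 above its 0 h level at 3 h of the downshift and 0.26 above it at 9 h (38 of 44 members above at 3 h). In series 11 the median was near 0 until 6 h and -0.22 at 9 h, with 35 of 44 members below. In series 2 it was -0.18, -0.29, -0.37 and -0.22 at 1, 3, 6 and 9 h of the upshift, so 39 of 44 members were below their start at 6 h. In series 13 it stayed between -0.064 and 0.058. The median of all genes tested stayed between -0.033 and 0.021 in these 4 series.

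Levels before the shift, after 16 h at each temperature, went opposite ways in the pairs. Each comparison rests on 1 sample a group and was not tested. In series 5 against series 2, 39 of 44 members were lower at 38 than at 33 °C, 26 of them by at least 1.5-fold and 0 higher by that much (15% and 13.5% of all genes), with a median of -0.70. In series 11 against series 13, 38 of 44 were higher at 38 °C, 10 by at least 1.5-fold and 0 lower by that much (11.4% and 13.9% of all genes), with a median of 0.35. No member passed 1.5-fold in the same direction in both pairs, where 4.13% of all genes did so upward and 5.05% downward. Pole (-1.77 and -0.17), Gins2 (-1.12 and -0.39), Tipin (-1.21 and -0.13), Tk1 (-1.20 and -0.19) and Rpa1 were the 5 members lower at 38 °C in both pairs. The 4 members higher in both were Orc1 (0.40 and 0.84), Tyms (0.007 and 0.77), Gins3 (0.071 and 0.24) and Pole2 (0.032 and 0.64).

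**Figure D4:**
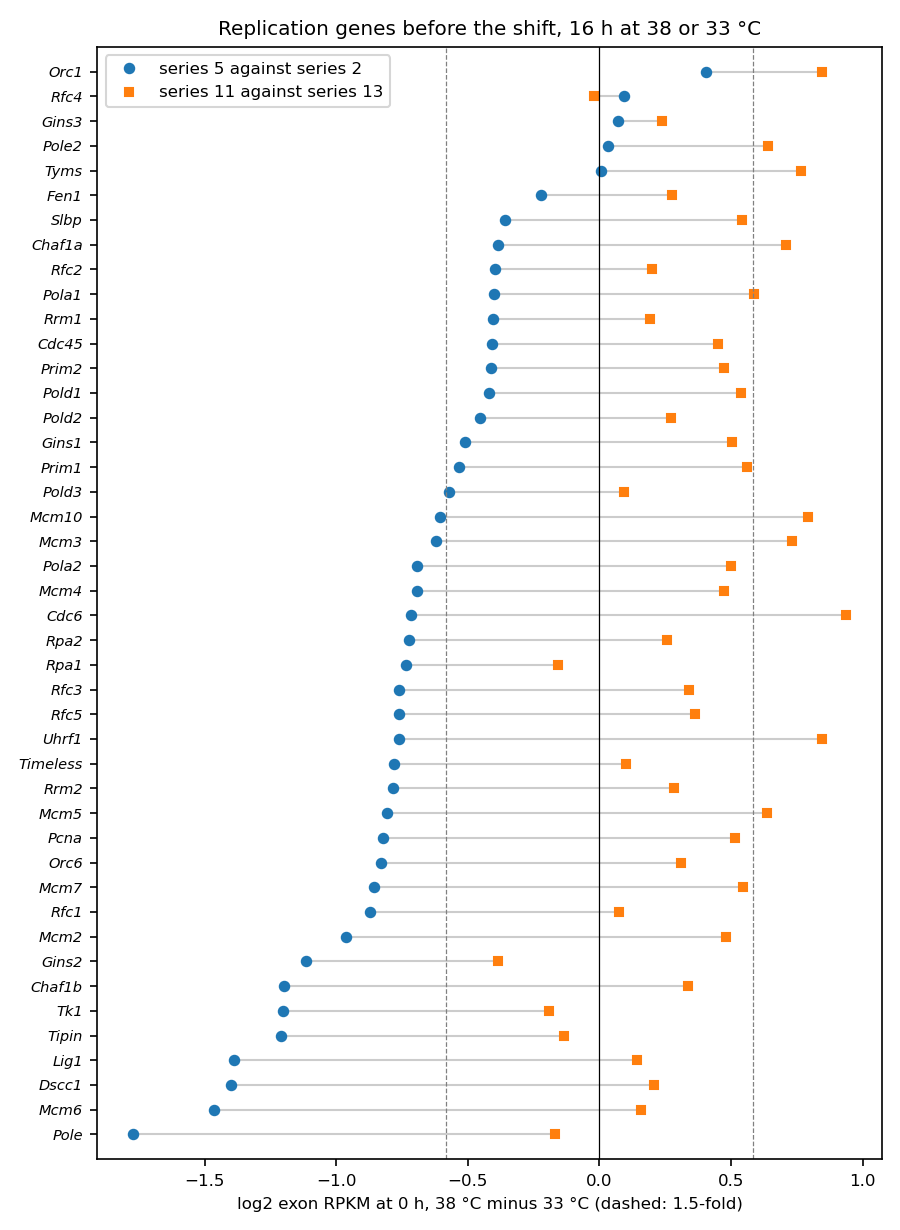
Log2 exon RPKM (with 0.1 added) at 0 h of the downshift (16 h at 38 °C) minus 0 h of the upshift (16 h at 33 °C) for 44 members, series 5 against series 2 as blue circles and series 11 against series 13 as orange squares; dashed lines mark 1.5-fold. In all but 5 members the blue point is below 0, and in 38 the orange point is above it.

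Samples at the same final temperature showed the same split. At 33 °C, 9 h after the downshift against 0 h of the upshift, the median was -0.35 in series 2 and 5 and 0.20 in series 11 and 13. At least 1.5-fold differences numbered 0 higher and 3 lower in series 2 and 5 (8.13% and 9.05% of all genes) and 0 either way in series 11 and 13 (4.26% and 9.53%). At 38 °C, 9 h after the upshift against 0 h of the downshift, it was 0.39 and -0.33, with 12 higher and 0 lower in series 2 and 5 (3.21% and 4.55% of all genes) and 0 higher and 6 lower in series 11 and 13 (9.74% and 8.94%). In the same direction in both pairs there were 0 members at either temperature (1.07% of all genes higher and 2.82% lower at 33 °C, and 0.531% and 0.777% at 38 °C). Between the courses at 9 h, Pole (0.70 and 0.88) and Chaf1b (0.61 and 0.90) were at least 1.5-fold higher after the downshift in both pairs, 2 of 44 members (1.89% of all genes), and 0 were lower by that much in both (3.14%).

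Intron reads stand for RNA that has not been spliced, and they were scaled by the exon library size. For introns the median difference between the shifts of all 9352 genes tested was -0.27, and that of the 44 members was -0.20. Only 1 member was called higher and 3 lower (1.63% and 15.6% of all genes). The counts were 1 and 2 within series 2 and 5 (1.12% and 13.6% of all genes) and 0 and 6 within series 11 and 13 (0.687% and 3.51%). Pold1, the catalytic subunit of polymerase delta, had the largest intron difference. Its intron levels were 2.62, 2.22, 2.08, 1.60 and 1.65 RPKM during the downshift and 1.56, 1.85, 2.17, 2.23 and 2.53 RPKM during the upshift, so they went down in the downshift and up in the upshift. The Pold1 intron difference was -1.36 ± 0.17 (adjusted p = 0.00234), -1.22 and -1.59 within the pairs, and it was called after each shift alone (-0.70 and 0.66). On introns 0 members were called higher and 1 lower after the downshift (0.524% and 3.74% of all genes), and 1 higher and 1 lower after the upshift (3.88% and 0.652%). On exons Pold1 had -0.60 ± 0.24 (adjusted p = 0.0686). Gins3 introns went from 3.12 to 2.32 RPKM and from 2.27 to 3.18 RPKM (-0.93 ± 0.18, adjusted p = 0.0101; -0.79 and -1.16). With the time points paired as a block the Gins3 call was lost (adjusted p = 0.0909), and Pold1 was the 1 member still called (adjusted p = 0.0444). The Uhrf1 intron difference, -1.01 ± 0.39 (adjusted p = 0.0996), and that of Pole, 0.91 ± 0.53 (adjusted p = 0.253), were not called, and Pole turned to -0.15 without the 0 h sample of the upshift. The other called members, named here after their values were seen, were Mcm3 (-0.86 ± 0.27, adjusted p = 0.0478) and Tk1 (0.84 ± 0.18, adjusted p = 0.0135). Neither was called with the block. The Mcm3 call held in 2 of 10 fits that each left out 1 sample, with -0.68 and -1.10 within the pairs. The Tk1 intron call rests on series 2 and 5 (1.14), since series 11 and 13 gave 0.29 (adjusted p = 0.515).

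For the ratio of exon to intron reads, the test was the interaction of read type with time. Exon and intron reads of a sample entered as separate observations, with no term for the sample. Their pairing was thus not modelled, and the SE and adjusted p below rest on treating them as independent. The median ratio difference between the shifts was 0.50 for the 44 members and 0.28 for all genes, and 42 of 44 members were positive. The share of all genes that were positive was not computed, but their median was above 0 too. Only 3 members were called higher and 0 lower (15.9% and 1.88% of all genes). These were Lig1 (1.57 ± 0.43, adjusted p = 0.0183), Tipin (1.54 ± 0.43, adjusted p = 0.0215) and, outside the naming rule, Rfc1 (0.87 ± 0.28, adjusted p = 0.0378; 0.86 and 0.82 within the pairs). Within series 2 and 5, 0 members were called higher (5.24% of all genes) and 0 lower (0.655%). Within series 11 and 13, 2 were called higher (4.37%), Tk1 (1.22, adjusted p = 0.0366) and Mcm6 (1.32, adjusted p = 0.0491), and 0 lower (0.739%). Lig1 introns were 1.47, 2.18, 2.12, 1.54 and 1.48 RPKM during the downshift, so they were highest at 1 and 3 h, while its exons were highest at 9 h. During the upshift Lig1 introns were 1.40, 1.202, 1.18, 1.36 and 1.53 RPKM. Tipin introns were 1.92, 2.20, 2.07, 1.96 and 1.86 RPKM and 2.10, 1.35, 1.67, 1.69 and 1.96 RPKM in the same order, lowest 1 h after the upshift, while Tipin exons were lowest at 6 h of it. The values for Lig1 were 2.06 and 1.16 within the pairs and those for Tipin 1.57 and 1.40, none of them called within a pair. Gins2 (1.63 ± 0.60, adjusted p = 0.0700) and Chaf1b (1.61 ± 0.67, adjusted p = 0.103) had larger ratio differences that were not called. With the time points paired as a block 0 members were called for the ratio (adjusted p = 0.0846 for Lig1 and 0.0796 for Tipin), and 0 were called without the 6 h sample of either shift or the 9 h sample of the downshift. The 3 calls became 8 without the 0 h sample of the downshift, and 5 without its 3 h sample or the 0 h sample of the upshift.

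**Figure D5:**
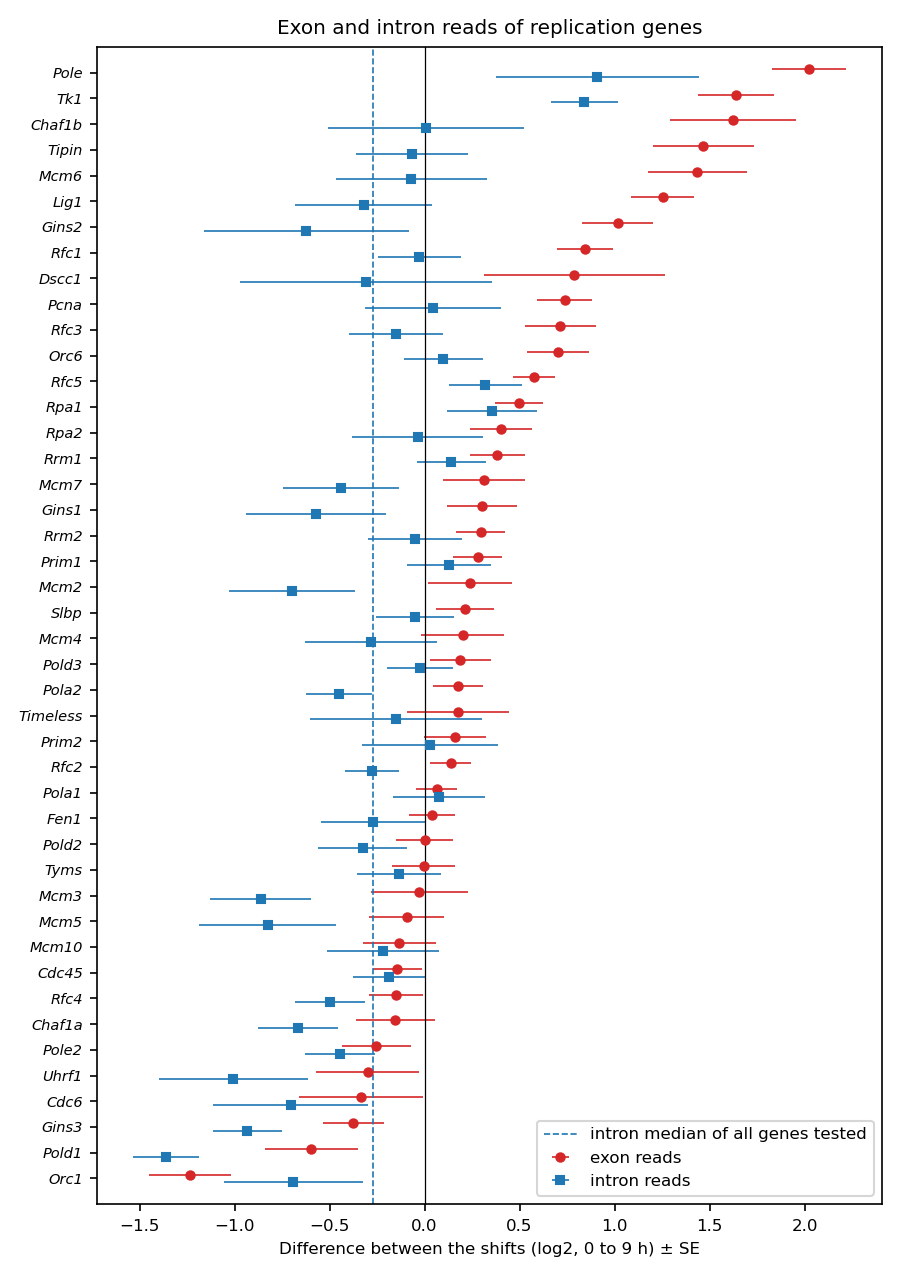
Fitted difference between the shifts (log2, 0 to 9 h, ± SE) on exon reads (red circles) and on intron reads (blue squares) for 44 members, ordered by the exon value; the dashed line is the intron median of all genes tested, -0.27. The 13 members called higher on exons and Dscc1 fill the top of the plot, with red points to the right of 0 and blue points nearer to 0 than the red ones; the blue points of Pole (0.91) and Tk1 (0.84) are the highest.

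A straight line in log2 time misses genes that turn within a course. The joint test of curvature called 5 of 44 members (11.4%), against 2% of all genes: Dscc1, Uhrf1, Mcm2, Mcm7 and, beyond the naming rule, Mcm3. Dscc1 exon levels were 1.998, 2.87, 3.84, 3.69 and 3.14 RPKM during the downshift and 3.30, 2.33, 1.91, 2.35 and 3.33 RPKM during the upshift, so they peaked at 3 h in the downshift and had their lowest value at 3 h in the upshift (adjusted p = 0.0227). Uhrf1 did the same, at 76.9, 80.5, 91.7, 85.6 and 67.6 RPKM and then 73.3, 61.4, 61.2, 73.6 and 87.2 RPKM (adjusted p = 0.0360). Mcm2 and Mcm7 peaked at 6 h of the downshift (38.7 and 51.8 RPKM) and were lowest at 3 h of the upshift (29.0 and 36.9 RPKM; adjusted p = 0.0399 and 0.0477). Mcm3 also peaked at 6 h, at 119 RPKM, against 96.0 RPKM at 0 h (adjusted p = 0.0493). Within series 2 and 5, 11 members were called (3.88% of all genes), and within series 11 and 13 there were 0 (0.808%). The 5 calls became 0 without the 3 h or the 6 h sample of the downshift and 9 without the 1 h sample of the upshift, with 1 to 3 calls without 6 others (0 and 9 h of the downshift and 0, 3, 6 and 9 h of the upshift).

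The same test was applied to other genes of the pathway. Of 31 tested G1/S regulators 5 (16.1%) were called higher toward 33 °C and 6 (19.4%) lower, against 25.2% and 21.7% of all genes; the counts were 7 and 7 within series 2 and 5 and 3 and 9 within series 11 and 13. Ccne1, the cyclin that drives S phase entry (1.83 ± 0.33, adjusted p = 0.00164; 2.57 and 0.67 within the pairs), and Tfdp2, a partner of E2F factors (1.73 ± 0.21, adjusted p = 0.000237; 1.84 and 1.63), were higher, and Cdkn2d, an inhibitor of cyclin D kinases, was lower (-1.55 ± 0.36, adjusted p = 0.00631; -2.73 and -0.36). Of 40 other replication factors 15 (37.5%) were called higher and 11 (27.5%) lower. The counts were 19 and 8 within series 2 and 5 and 4 and 11 within series 11 and 13. Calls were thus mostly higher in the first pair and mostly lower in the second. Whether the same genes were called in both pairs was not counted. Clspn, the checkpoint adaptor claspin that travels with the fork and with Timeless and Tipin, was higher (2.05 ± 0.33, adjusted p = 0.000937; 2.60 and 1.29). Mcm8, a helicase subunit outside the main MCM ring (-2.31 ± 0.32, adjusted p = 0.000433; -2.29 and -2.39), and Chtf8, a subunit of the clamp loader that also holds Dscc1 (-2.06 ± 0.22, adjusted p = 0.000154; -2.18 and -2.01), were lower. Of 18 genes of replication stress and repair 4 (22.2%) were called each way, but 7 higher and 2 lower within series 2 and 5 and 2 higher and 7 lower within series 11 and 13. The largest differences were those of Chek1 (-0.95 ± 0.22), Brca2 (0.85 ± 0.18) and Atr (0.81 ± 0.14; adjusted p = 0.00603, 0.00439 and 0.00127).

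Over both pairs, genes of mitosis and of histone supply were called for the exon difference in nearly all cases, in 1 direction each. Of 27 tested mitosis genes 26 were called lower toward 33 °C and 0 higher (21.7% and 25.2% of all genes). Within series 2 and 5, 26 were called lower, and within series 11 and 13, 22 were. Their median was -1.75 (-2.56 and -0.82 within the pairs). The largest differences were those of Cenpf (-3.07), Aurka (-2.90) and Ube2c (-2.54). Of 42 replication-dependent histone genes 38 were called higher and 0 lower, with 34 higher within series 2 and 5 and 31 within series 11 and 13. Their median was 1.93 (2.66 and 0.80). The largest differences were those of Hist1h1d (3.33), Hist4h4 (3.101) and Hist1h1c (3.01). After the downshift alone 10 of the 42 were called higher (16.3% of all genes), and after the upshift alone 39 were called lower (18.6% of all genes). Histone copies of near-identical sequence may share reads. The medians of the members, 0.51 and -0.26 in the pairs, changed sign where those of mitosis and histone genes kept theirs. The part of cell cycle position in the members' values was not tested.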

How the data were processed

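Total RNA of 10 samples, 1 per time and course, was measured. Per the submitters' processing notes, STAR, bedtools and the build mm10 were used. Versions, the counting rule, the annotation and any use of strand were not given in the sources used here. Both deposited files are named for RPKM but hold estimated counts of exon and intron reads per gene (22.86% of the exon values above 0 are whole within 1e-06); the authors applied no scaling that the values show. A title with a mistyped temperature was read by its description, which puts the sample in the upshift.

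Counts were rounded, and the columns of a sample were summed with an offset per gene for the mix of series. They were tested with edgeR 4.0.16 (R 4.3.3, quasi-likelihood, TMM scaling) and 1 straight line per course over log2(hours + 1), on genes with a mean of at least 1 exon RPKM (for introns also 0.05 intron RPKM). Changes are fitted from 0 to 9 h; RPKM used GENCODE M21 lengths, is the mean of the sample's columns and was compared with 0.1 added. On simulated data with 10179 genes, planted exon differences of 1.0 and 1.5 were recovered at 67% and 98%, with 7 false among 172 calls. For the ratio (9353 genes) recovery was 22% and 69%. In the simulation the columns of a sample shared their deviation, and the pairs of series did not differ in their changes over time. These rates therefore do not cover the disagreement between the pairs seen in the data. Alternatives used DESeq2 1.42.0, limma 3.58.1, other filters, offsets, time scales, series and left-out samples. An extra column of 2 downshift samples (series 10) entered 1 alternative.

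The members and the gene lists were chosen with earlier results of these data known. Genes named with full values are members called for the exon difference, the 4 largest changes after each shift, on introns and on the ratio, the 4 smallest p for curvature, and the 3 largest differences in each other list. Other members are given where a role or a partner needed them. Read totals limit the precision of low genes: Dscc1 had 600 to 1374 exon reads per sample.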

Additional observations from a re-analysis of the deposited data

Results flagged for a closer look

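The exon difference between the shifts was tested itself, and it passed the threshold for 14 of 44 members in edgeR's quasi-likelihood test. It was positive for Pole (2.02), Tk1 (1.64), Chaf1b (1.62), Tipin (1.47), Mcm6 (1.44), Lig1 (1.25), Gins2 (1.02), Rfc1 (0.84), Pcna (0.74), Rfc3 (0.71), Orc6 (0.70), Rfc5 (0.58) and Rpa1 (0.50), and negative for Orc1 (-1.23). On introns the tested difference passed for Pold1 (-1.36), Gins3 (-0.93), Mcm3 (-0.86) and Tk1 (0.84). On the exon-to-intron ratio it passed for Lig1 (1.57), Tipin (1.54) and Rfc1 (0.87). With the time points paired as a block, Pold1 alone of the intron results and 0 of the ratio results passed. All values are log2 changes from 0 to 9 h, downshift minus upshift.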

How the results depend on the processing

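Counts are members called, of 44, and values are log2. Shares of all genes called are not given for left-out samples and the other alternative fits, here or above. A count that moved under these fits has no background beside it and may have moved over all genes too. Within series 11 and 13, the exon difference had 5 members higher and 10 lower (median -0.256; Pcna -0.085), the exon downshift 1 higher and 7 lower (median -0.153), the exon upshift 2 higher and 2 lower (median 0.064), the intron difference 0 higher and 6 lower, the intron downshift 0 lower, the intron upshift 0 higher and 0 lower, and curvature 0. Within series 2 and 5, the exon downshift had 0 lower, the intron difference a median of 0.058, the intron upshift a median of -0.084, the ratio 0 higher and curvature 11. On linear hours, the exon difference had 2 lower, the exon downshift 4 higher, the intron difference 0 higher, the intron downshift 0 lower, the intron upshift 0 higher and 0 lower, the ratio 5 higher and curvature 16. With 0 h set against 3, 6 and 9 h, the exon difference had 0 lower, the exon downshift 1 higher and 0 lower, the exon upshift 0 higher and 4 lower, the intron difference 2 higher (median 0.043), the intron downshift 1 higher and 2 lower (median 0.043), the intron upshift 2 higher and 2 lower (median -0.007) and the ratio 1 higher. DESeq2's Wald test gave 2 lower for the exon difference, 6 lower for the intron difference, 2 lower for the intron downshift and 2 higher for the intron upshift, and limma gave 7 higher for the ratio. Without the offset, 2 were lower for the exon difference, 1 lower for the exon downshift and 0 lower for the intron upshift. Without the RPKM filter, 1 was lower for the exon downshift and 8 were called for curvature. At 0 h, 10 members were at least 1.5-fold higher at 38 °C within series 11 and 13, and 26 lower within series 2 and 5, against 0 and 0 in both pairs.

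With the courses paired by hour as a replicate block, the exon difference had 14 higher and 1 lower (Pole 2.029, adjusted p = 0.00164), the intron difference 0 higher and 1 lower, and the ratio 0. Leaving out each sample in turn gave 12 to 19 higher and 1 to 2 lower for the exon difference, 2 to 12 and 0 to 3 for the exon downshift, 1 to 4 and 9 to 17 for the exon upshift, 0 to 1 and 2 to 8 for the intron difference, 0 to 3 higher and 0 to 1 lower for the intron upshift, 0 to 2 lower for the intron downshift, 0 to 8 higher for the ratio, and 0 to 9 for curvature. The exon upshift had 4 higher without its 0 h sample. The intron difference had 8 lower without the 0 h and 5 without the 3 h sample of the downshift, and 0 higher without the 0 h sample of either shift. The ratio had 8 without the 0 h and 5 without the 3 h sample of the downshift, and 5 without the 0 h sample of the upshift. Over the left-out samples the intron median ran from -0.516 to 0.025 for the downshift and from -0.152 to 0.332 for the upshift, each turned without its own 9 h sample. The Pole intron difference ran from -0.150 (without the 0 h sample of the upshift) to 1.227. The cause of these changes was not tested. The exon difference had between 12 and 19 members higher under each alternative that used both pairs, not always the members called above.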
